A study of Mus musculus with 11 samples.

Results

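The 7 genes mt-Nd1, mt-Nd2, mt-Nd3, mt-Nd4l, mt-Nd4, mt-Nd5 and mt-Nd6 encode the subunits of respiratory complex I that the mouse mitochondrial genome carries. They were picked by that role, a rule that uses no measured value, although the choice was made with earlier results of these data known. They are 7 of the 13 genes of the mitochondrial chromosome in a table of 22608 genes. All 7 were found, and all 7 were among the 11319 genes tested, those whose mean log2 CPM was 1 or more before TMM scaling. In all values below, CPM is a gene's count over the TMM-scaled library size, times 1e+06.

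Complex I (NADH:ubiquinone oxidoreductase) passes electrons from NADH to ubiquinone and pumps protons across the inner mitochondrial membrane, and it is abundant in cardiac muscle. The mitochondrial genome encodes core subunits of its membrane arm, whereas the subunits that bind NADH and hold the iron-sulfur clusters come from nuclear genes. Most mitochondrial mRNAs are cut out of long precursors transcribed from the heavy strand, usually at the transfer RNAs between them, and mt-Nd6 comes from the light strand.

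RNA from the heart (ventricle) of 11 male mice aged 8 to 16 weeks was sequenced, to ask how the heart transcriptome of a mouse model of Williams-Beuren syndrome differs from that of wild-type littermates and what JZL184 changes in it. CD mice are hemizygous for a deletion on chromosome 5 that corresponds to the region commonly deleted in the syndrome, on a C57BL/6J background after 9 generations of backcrossing. JZL184 blocks monoacylglycerol lipase, which breaks down an endocannabinoid (2-arachidonoylglycerol), and was injected intraperitoneally at 8 mg/kg daily for 10 days. The groups were WT VEH (2 mice), WT JZL184 (3 mice), CD VEH (3 mice) and CD JZL184 (3 mice), where VEH is vehicle by the sample titles, although the treatment field of the labels calls these 5 mice untreated.

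The estimated counts summed to 69660329 to 92251550 per mouse, and no 2 mice of a group held the same values. All 14 tested genes of the deleted interval were lower in each of the 6 CD mice than in each of the 5 WT mice. The 8 cardiomyocyte markers summed to 32405 to 44732 CPM, and the 8 atrial markers to 293 to 575 CPM. The 7 complex I genes took 9.61% to 12.1% of all counts of a mouse and the 13 mitochondrial genes 36.4% to 46.6%, and the 95% Wilson interval of a share of the 7 genes reached at most 0.00747 percentage points to each side, which covers counting error only. In whole tissue, fewer cells of a type and less RNA per cell cannot be told apart.

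In the GENCODE M21 annotation of GRCm38, each of the 7 genes is protein-coding, with a single exon and no intron, and the annotation lists no UTR beyond the stop codon. mt-Nd1 lies at chrM:2751-3707 (957 bases), mt-Nd2 at chrM:3914-4951 (1038 bases), mt-Nd3 at chrM:9459-9806 (348 bases), mt-Nd4l at chrM:9877-10173 (297 bases), mt-Nd4 at chrM:10167-11544 (1378 bases) and mt-Nd5 at chrM:11742-13565 (1824 bases), all on the plus strand. mt-Nd6 lies at chrM:13552-14070 (519 bases) on the minus strand. Its coding strand held 28.1% G and 5.97% C, against at most 11.6% G and at least 22.1% C in the other 6 genes. Both pairs of neighbours that overlap are shown here because they bear on which reads can be assigned to which gene. Each line gives 30 bases 5′ to 3′ on the gene's own coding strand, from the GENCODE M21 transcripts, with the bases shared with the neighbour in capitals.
mt-Nd4l, last 30 bases (chrM:10144-10173, plus strand): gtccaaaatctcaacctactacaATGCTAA
mt-Nd4, first 30 bases (chrM:10167-10196, plus strand): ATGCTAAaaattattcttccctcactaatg
mt-Nd5, last 30 bases (chrM:13536-13565, plus strand): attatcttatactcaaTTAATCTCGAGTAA
mt-Nd6, last 30 bases (chrM:13552-13581, minus strand): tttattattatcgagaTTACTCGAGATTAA
The start codon of mt-Nd4 thus lies inside the last 7 bases of mt-Nd4l, which are read from the same mRNA. The last 14 bases of mt-Nd5 and mt-Nd6 are the same bases read from opposite strands. The strand setting of the libraries is not given in the sources used here, so reads of mt-Nd6 and of RNA antisense to it cannot be told apart.

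Among the GENCODE M21 transcripts, copies of 6 of the 7 genes, mt-Nd1 being the exception, occur as nuclear pseudogenes with at least 90% identity over at least 100 bases. Nuclear sequence outside these transcripts was not searched for copies, of mt-Nd1 or of the others. Gm28439 matches 876 bases of mt-Nd4 at 100% and Gm10222 matches 294 bases of mt-Nd4l at 100%. The table lists only 1 of these 7 pseudogenes, Gm4076 (a copy of mt-Nd5), at 8.01 to 27.1 estimated counts per mouse, and reads that fit a mitochondrial gene and its copy equally well are uncertain.

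Per kilobase of transcript, mt-Nd1 was the most abundant of the 7 mRNAs, with a median of 29564 CPM per kilobase over the 11 mice (lowest 22996, highest 34343). mt-Nd4 followed at 21796 and mt-Nd2 at 20056, then mt-Nd3 at 15269 and mt-Nd4l at 13418, and last mt-Nd6 at 10368 and mt-Nd5 at 10152. Within mice, mt-Nd1 was above mt-Nd4, mt-Nd2 above mt-Nd3, and mt-Nd4l above mt-Nd6 in 11 of 11 mice. mt-Nd4 was above mt-Nd2 in 10 of 11 mice, with nearly equal levels in both WT VEH mice (ratio 0.996 in the exception). mt-Nd6 was above mt-Nd5 in 1 of 11 mice, so the order of their medians was not that of most mice, and the ranges of these 2 genes overlapped. The order of mt-Nd3 and mt-Nd4l went with the group: mt-Nd3 was above mt-Nd4l in all 3 WT JZL184 and all 3 CD VEH mice and below it in both WT VEH and all 3 CD JZL184 mice. Annotated lengths were used, and the effective lengths of Salmon were not analysed here.

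**Figure D1:**
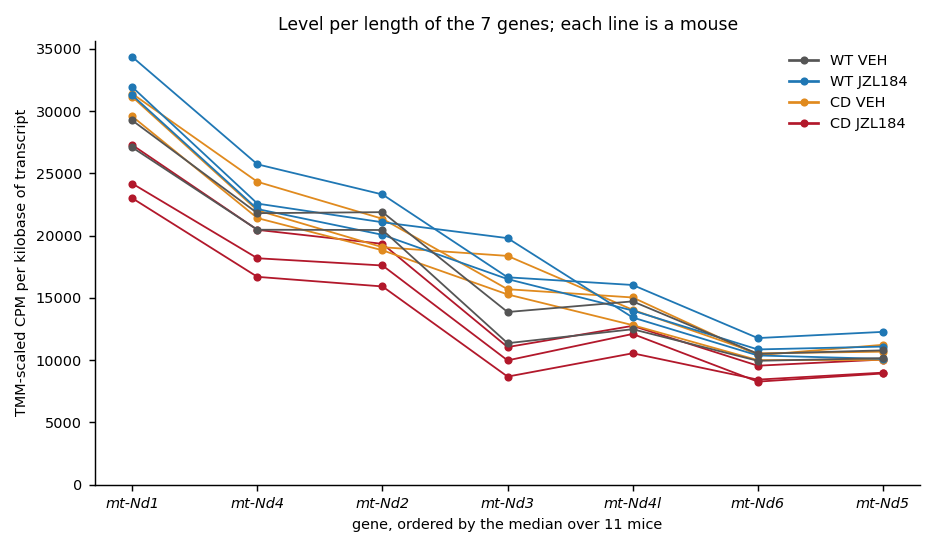
TMM-scaled CPM per kilobase (y axis) of the 7 genes, ordered by their median over 11 mice (x axis), with a line for each mouse in its group's colour. The lines run from 22996 to 34343 for mt-Nd1 down to 8919 to 12262 for mt-Nd5, and they fan out most, relative to their level, at mt-Nd3 (8670 to 19791).

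The subunits at the junction of the membrane arm and the matrix arm include ND1, which holds much of the channel through which ubiquinone enters, and ND3, whose loop lies beside that channel. mt-Nd3 varied most of the 7 genes relative to its level. Its level was 4822 and 3951 CPM in WT VEH, 5793, 6887 and 5743 CPM in WT JZL184, 6391, 5460 and 5314 CPM in CD VEH, and 3843, 3470 and 3017 CPM in CD JZL184. The 3 CD JZL184 mice held the 3 lowest values of the study, the 2 WT VEH mice came next, and the 6 mice of WT JZL184 and CD VEH were all higher. mt-Nd1 was at 27986 and 25911 CPM in WT VEH, 32866, 30548 and 29919 CPM in WT JZL184, 29795, 30036 and 28292 CPM in CD VEH, and 26097, 23133 and 22008 CPM in CD JZL184. Its CD JZL184 values lay below those of CD VEH and WT JZL184, and overlapped those of WT VEH.

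ND6 and ND4L are small hydrophobic subunits of the membrane arm between the junction and the pumping modules. mt-Nd6 was at 5449 and 5158 CPM in WT VEH, 6106, 5381 and 5632 CPM in WT JZL184, 5469, 5392 and 5187 CPM in CD VEH, and 4954, 4289 and 4374 CPM in CD JZL184. All 3 CD JZL184 mice were below the other 8 mice, which overlapped between groups. mt-Nd4l was at 4370 and 3705 CPM in WT VEH, 4760, 3985 and 4150 CPM in WT JZL184, 4169, 4463 and 3802 CPM in CD VEH, and 3786, 3592 and 3131 CPM in CD JZL184. The highest CD JZL184 mouse was only just below the lowest CD VEH mouse.

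ND2, ND4 and ND5 are the antiporter-like subunits, which form the pumping modules of the membrane arm. mt-Nd4 was at 30036 and 28202 CPM in WT VEH, 35443, 31096 and 30491 CPM in WT JZL184, 30352, 33508 and 29492 CPM in CD VEH, and 28189, 25046 and 22987 CPM in CD JZL184. Its 3 lowest values were again those of CD JZL184, although the highest of them was just below a WT VEH mouse. mt-Nd2 ranged from 16515 to 20067 CPM in CD JZL184 and mt-Nd5 from 16269 to 18312 CPM. Both overlapped with CD VEH, where mt-Nd2 ranged from 19531 to 22155 CPM and mt-Nd5 from 18259 to 20472 CPM. In WT VEH, mt-Nd2 was at 22709 and 21222 CPM and mt-Nd5 at 19657 and 18516 CPM, and in WT JZL184 they ranged from 20819 to 24184 CPM and from 18413 to 22366 CPM.

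**Figure D2:**
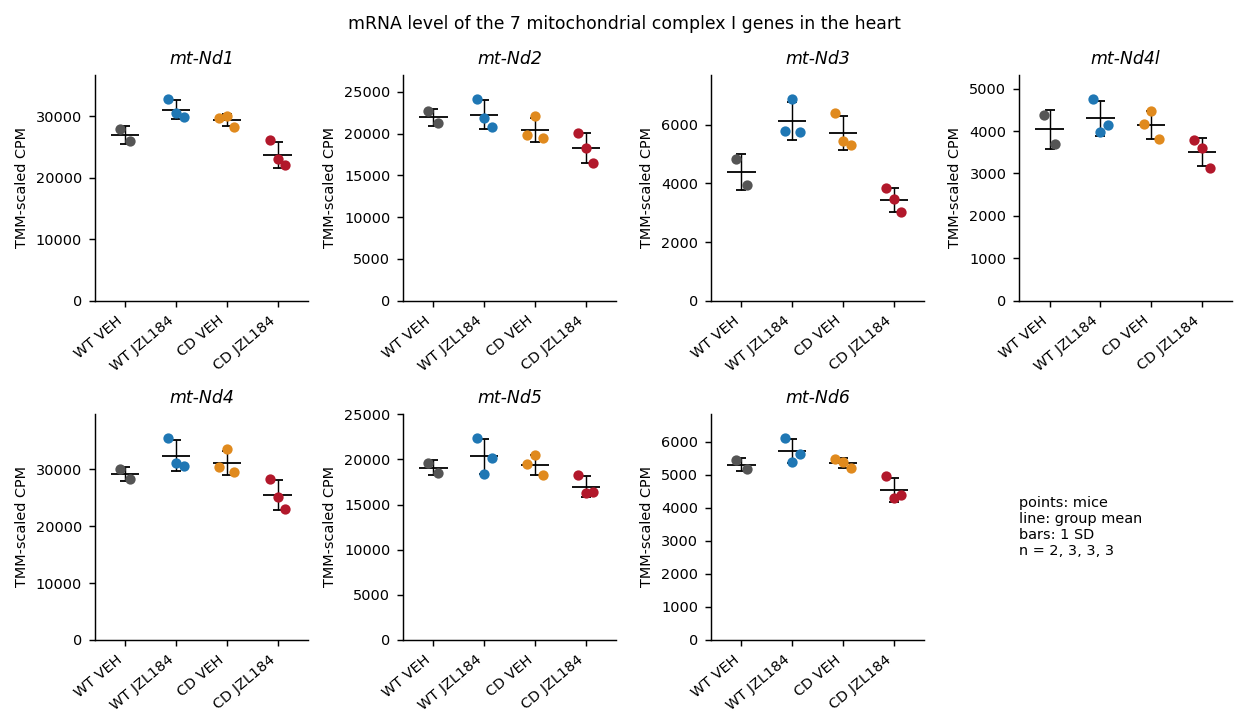
TMM-scaled CPM (y axis, from 0) of each of the 7 genes by group (x axis), with a point for each mouse, the group mean as a line and 1 SD as bars (n = 2 for WT VEH and 3 for the other groups). The CD JZL184 means are the lowest of the 4 groups in each panel, and relative to the level the gap is widest for mt-Nd3 (3443 CPM against 5721 in CD VEH and 6141 in WT JZL184); scaled to the 13 mitochondrial genes, the difference from CD VEH turned its sign for the 6 others.

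JZL184 in CD mice. 4 of the 7 genes fell in CD JZL184 against CD VEH, while all 7 fold changes were negative, and 6 of the 7, mt-Nd3 apart, changed sign when libraries were scaled to the counts of the 13 mitochondrial genes. By edgeR (quasi-likelihood test, p-values adjusted after Benjamini-Hochberg across 11319 genes), 33.8% of all tested genes passed an adjusted p under 0.05, 17.0% lower and 16.8% higher. mt-Nd3 fell by 0.73 on the log2 scale (standard error 0.12, adjusted p = 0.00254), from 5721 ± 584 to 3443 ± 413 CPM (SD, n = 3 each). mt-Nd1 fell by 0.31 (standard error 0.084, adjusted p = 0.0169), from 29375 ± 945 to 23746 ± 2112 CPM. mt-Nd4 fell by 0.29 (adjusted p = 0.0366) and mt-Nd6 by 0.24 (adjusted p = 0.0421). The log2 fold changes of mt-Nd4l (-0.24, adjusted p = 0.0941), mt-Nd5 (-0.19, adjusted p = 0.121) and mt-Nd2 (-0.16, adjusted p = 0.195) did not pass the threshold, with 95% intervals that reached from -0.47 to -0.012, from -0.39 to 0.0070 and from -0.37 to 0.043. CPM values did not overlap between the groups for 5 genes (the 4 called genes and mt-Nd4l), all lower, where 27.3% of all tested genes were lower and 27.2% higher without overlap. mt-Nd3 was called whichever of the 11 mice was left out, mt-Nd1 in 8 of these 11 fits, and mt-Nd4 and mt-Nd6 in 3 of 11. Of 10 other settings, mt-Nd3 was called in 10, mt-Nd1 in 7, and mt-Nd4 and mt-Nd6 in 6. Without a filter on low counts, or with at least 10 counts in every mouse, mt-Nd3 was the only called gene of the 7. The count of called genes went from 4 to 1 without mouse C or E of CD JZL184 or mouse A of CD VEH, and to 2 without mouse C or E of CD VEH, mouse D of WT JZL184 or mouse C or D of WT VEH.

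JZL184 in WT mice. mt-Nd3 alone of the 7 genes rose in WT JZL184 against WT VEH, by 0.49 on the log2 scale (standard error 0.14, edgeR adjusted p = 0.0218), from a mean of 4386 ± 616 CPM (SD, n = 2) to 6141 ± 647 CPM (SD, n = 3). Of all tested genes, 15.4% were higher at this threshold. The other 6 log2 fold changes ran from 0.021 for mt-Nd2 to 0.21 for mt-Nd1, whose adjusted p was 0.114, and all 6 turned negative when libraries were scaled to the 13 mitochondrial genes. On that scale mt-Nd3 was at 0.24 and did not pass the threshold (adjusted p = 0.0645). The groups did not overlap for mt-Nd1, mt-Nd3 and mt-Nd4, all higher, which held for 27.4% of all tested genes. The call of mt-Nd3 was lost without mouse B of WT JZL184 (adjusted p = 0.0627), mouse C of WT VEH (adjusted p = 0.0558) or mouse D of WT VEH (adjusted p = 0.189).

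Genotype by JZL184. The interaction (the log2 change with JZL184 in CD mice minus that in WT mice) passed an adjusted p under 0.05 for 4 of the 7 genes, all negative, and the sign of 6 of the 7, mt-Nd3 apart, turned when libraries were scaled to the 13 mitochondrial genes. Of all tested genes, 51.5% were called, 26.2% negative and 25.3% positive. It was -1.22 for mt-Nd3 (standard error 0.18, edgeR adjusted p = 0.000374), -0.51 for mt-Nd1 (0.13, adjusted p = 0.00557), -0.44 for mt-Nd4 (0.15, adjusted p = 0.0237) and -0.34 for mt-Nd6 (0.12, adjusted p = 0.0345). mt-Nd4l, mt-Nd5 and mt-Nd2 were at -0.33, -0.28 and -0.19, with adjusted p of 0.0982, 0.102 and 0.293. mt-Nd3 and mt-Nd1 were called in all 11 fits that left out a mouse, mt-Nd4 in 6 and mt-Nd6 in 3. Without mouse C or E of CD JZL184, mouse C of CD VEH or either WT VEH mouse, these were the only 2 called.

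Genotype without treatment. None of the 7 genes passed the threshold in CD VEH against WT VEH with edgeR at its main settings, where 30.4% of all tested genes did, 15.0% higher and 15.4% lower. At an unadjusted p under 0.05 there was 1, mt-Nd3, with a log2 fold change of 0.38 (95% interval 0.087 to 0.68, adjusted p = 0.0509), and DESeq2 called the same gene (adjusted p = 0.0140). So did edgeR with robust estimation (adjusted p = 0.0474) and in a fit of the compared groups alone (adjusted p = 0.0404). For mt-Nd3, the 3 CD VEH mice (5314 to 6391 CPM) were above both WT VEH mice (3951 and 4822 CPM). The remaining log2 fold changes lay between -0.10 for mt-Nd2 and 0.12 for mt-Nd1, and 5 of the 7 signs turned when libraries were scaled to the 13 mitochondrial genes. The groups did not overlap for mt-Nd1 and mt-Nd3, both higher, against 32.5% of all tested genes higher and 31.5% lower. mt-Nd3 passed the threshold without mouse E of CD JZL184 (adjusted p = 0.0496) and without mouse A (0.0458) or B (0.0352) of WT JZL184. These mice are in neither compared group and enter through the shared spread, the gene filter, the scaling and the adjustment.

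Genotype under JZL184. All 7 genes fell in CD JZL184 against WT JZL184, where 38.3% of all tested genes were called, 20.1% lower and 18.2% higher, and 6 of them, mt-Nd3 apart, changed sign when libraries were scaled to the 13 mitochondrial genes. The log2 fold changes ran from -0.26 for mt-Nd5 (edgeR adjusted p = 0.0415) to -0.83 for mt-Nd3 (standard error 0.12, adjusted p = 0.000973). mt-Nd1 was at -0.39 (adjusted p = 0.00455), mt-Nd4 at -0.35 (0.0153), mt-Nd6 at -0.33 (0.00883), mt-Nd4l at -0.30 (0.0449) and mt-Nd2 at -0.29 (0.0332). The groups did not overlap for any of the 7 genes, against 24.3% of all tested genes lower and 23.6% higher without overlap. mt-Nd1, mt-Nd3 and mt-Nd6 were called in all 11 fits that left out a mouse, mt-Nd4 in 9, mt-Nd2 in 7, mt-Nd4l in 4 and mt-Nd5 in 3. The count fell to 3 without mouse C or E of CD JZL184 and to 4 without mouse A of WT JZL184. The comparisons within CD mice and under JZL184 share the CD JZL184 mice, and those of CD VEH and of WT JZL184 with WT VEH share the WT VEH mice, so they are not independent of each other.

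The 6 other mitochondrial genes encode subunits of complex III, complex IV and ATP synthase. Of these, 5 were lower in CD JZL184 against CD VEH and 4 higher in WT JZL184 against WT VEH, where 4 and 1 of the 7 complex I genes and 17.0% and 15.4% of all tested genes were, and the difference between the sets was not tested. Their median log2 fold changes were -0.44 and 0.30, against -0.24 and 0.11 for the 7 complex I genes and -0.0024 and -0.0026 for all tested genes. In CD JZL184 against CD VEH they ran from -0.25 for mt-Co1 to -0.56 for mt-Atp8, whose adjusted p was 0.0753. mt-Nd3 is the next protein-coding gene after mt-Co3, and its log2 CPM went with that of mt-Co3 (r = 0.99), mt-Co2 (r = 0.98) and mt-Atp6 (r = 0.97) over the 11 mice. mt-Nd1 had r of 0.93, 0.97 and 0.96 with these genes, and mt-Nd2 had the lowest r with mt-Co3 (0.62), against 0.73 with mt-Co2 and 0.68 with mt-Atp6. The r of mt-Nd3 was 0.97 with the distant mt-Cytb, 0.66 with mt-Atp8, which lies between mt-Co2 and mt-Atp6, and 0.76 with its neighbour mt-Nd4l. These coefficients describe mice that share group means and library scaling, with no test.

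**Figure D3:**
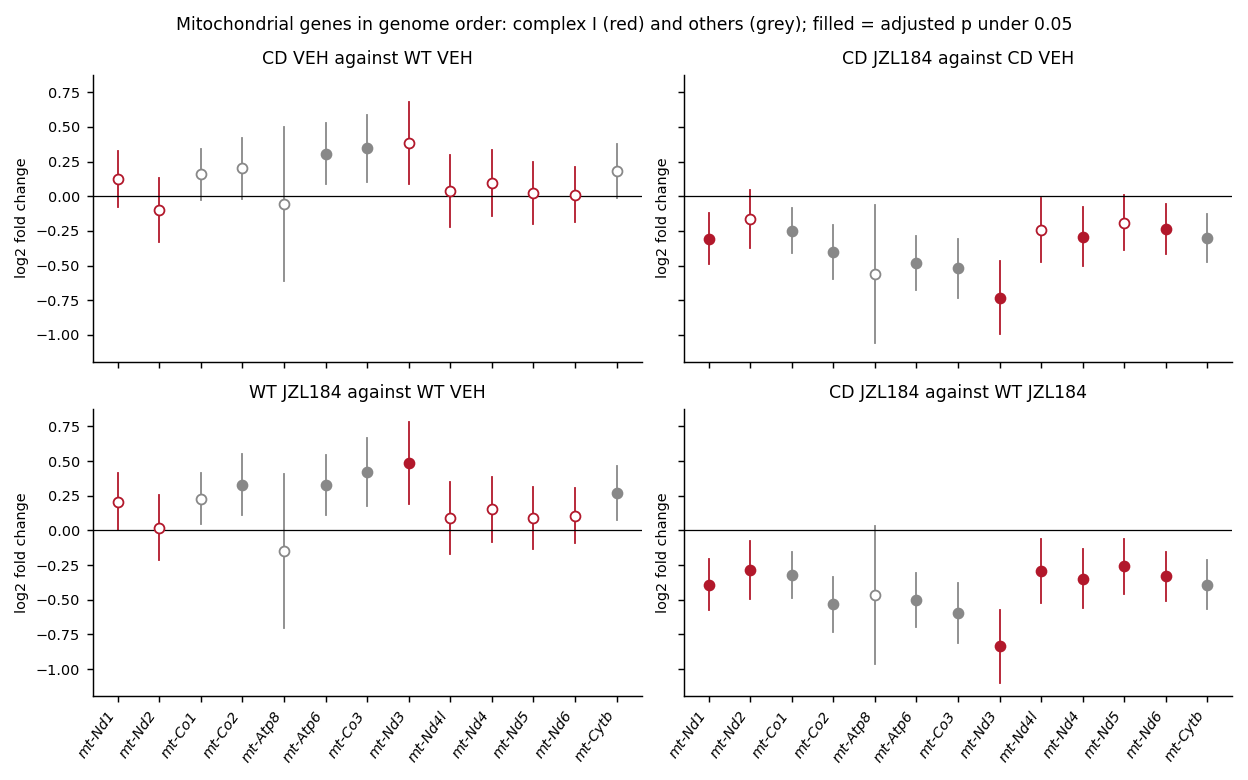
Log2 fold change (y axis) with its 95% interval for the 13 mitochondrial genes in genome order (x axis) in 4 comparisons, with complex I genes in red, the other genes in grey, and filled points at an edgeR adjusted p under 0.05. In each panel mt-Nd3 is farthest from 0 among the complex I genes (0.38, -0.73, 0.49 and -0.83), and mt-Atp6 and mt-Co3 lie on the same side of 0, whereas mt-Atp8 is on the other side against WT VEH (-0.054 in CD VEH and -0.15 in WT JZL184); scaled to the 13 mitochondrial genes, most other complex I genes change sign.

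Within the mitochondrial transcripts, mt-Nd3 fell and mt-Nd2 rose in CD JZL184 against CD VEH. In WT VEH, mt-Nd3 took 1.16% and 1.02% of the counts of the 13 genes. Its share lay between 1.17% and 1.44% over the 6 mice of WT JZL184 and CD VEH, and between 0.901% and 0.980% in CD JZL184. The CD JZL184 mice were lowest and overlapped with no other group. In WT VEH, mt-Nd2 took 5.48% and 5.47%, against 4.58% to 4.88% in WT JZL184, 4.25% to 4.89% in CD VEH and 4.93% to 5.15% in CD JZL184. Here the 2 WT VEH mice were highest and the CD JZL184 mice next, with no overlap between these and the other groups. mt-Nd1 kept a nearly constant share, between 6.39% and 6.76% in all 11 mice. The 7 genes together took 27.5% to 27.8% of these counts in WT VEH, 24.7% to 26.5% in WT JZL184, 24.8% to 26.8% in CD VEH and 26.4% to 26.9% in CD JZL184.

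The same was tested with edgeR by setting each library size to the summed counts of the 13 genes, a choice made after seeing the data. This shifts the median log2 fold change of all 11319 genes to 0.32 in CD JZL184 against CD VEH, 0.40 in CD JZL184 against WT JZL184, -0.25 in WT JZL184 against WT VEH, -0.16 in CD VEH against WT VEH and 0.57 for the interaction, and 60.0%, 70.6%, 45.4%, 30.2% and 67.7% of all genes were called. Relative to the mitochondrial total, mt-Nd3 was 0.41 lower (standard error 0.092, adjusted p = 0.00140) and mt-Nd2 0.16 higher (0.065, adjusted p = 0.0487) in CD JZL184 against CD VEH.
mt-Nd2 was 0.23 lower in WT JZL184 against WT VEH (adjusted p = 0.0195) and 0.27 lower (adjusted p = 0.0119) in CD VEH against WT VEH. mt-Nd3 was 0.44 lower in CD JZL184 against WT JZL184 (adjusted p = 0.000590). For the interaction, mt-Nd3 was at -0.65 (adjusted p = 0.000625), mt-Nd2 at 0.38 (adjusted p = 0.00259) and mt-Nd5 at 0.29 (adjusted p = 0.0233). mt-Nd1, mt-Nd4, mt-Nd4l and mt-Nd6 passed in none of the 5 comparisons on this scale, with log2 values between -0.16 and 0.23, and their lowest unadjusted p was 0.0511 (mt-Nd6, interaction).

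**Figure D4:**
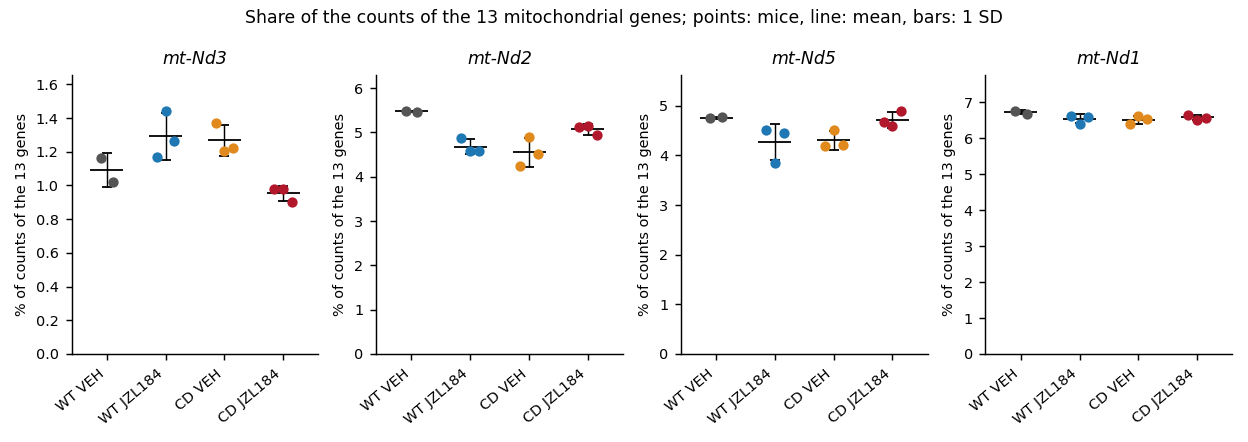
Percent of the counts of the 13 mitochondrial genes (y axis, from 0) taken by mt-Nd3, mt-Nd2, mt-Nd5 and mt-Nd1 by group (x axis), with a point for each mouse, the mean as a line and 1 SD as bars. The share of mt-Nd3 is lowest in CD JZL184 (mean 0.953%), that of mt-Nd2 highest in WT VEH (mean 5.48%), and that of mt-Nd1 lies between 6.39% and 6.76% in all mice.

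The ratios of overlapping neighbours varied little. Per base, the counts of mt-Nd6 stood to mt-Nd5 at 0.926 to 1.03 over the 11 mice, with group means of 0.977 in WT VEH, 0.989 in WT JZL184, 0.970 in CD VEH and 0.938 in CD JZL184. mt-Nd4l stood to mt-Nd4 at 0.595 to 0.675. In exact two-sided permutation tests over the 11 mice (6 tests), the difference in the log2 ratio of mt-Nd6 to mt-Nd5 was -0.044 between CD and WT mice (p = 0.123, adjusted p = 0.375) and -0.014 between JZL184 and VEH (p = 0.634, adjusted p = 0.946), and the interaction was -0.065 (p = 0.276, adjusted p = 0.552). For mt-Nd4l to mt-Nd4, these permutation tests gave 0.0056 (p = 0.877, adjusted p = 0.946), 0.0022 (p = 0.946, adjusted p = 0.946) and 0.11 (p = 0.125, adjusted p = 0.375). None passed, and the smallest p that the tests of genotype and of treatment allow is 0.00216.

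**Figure D5:**
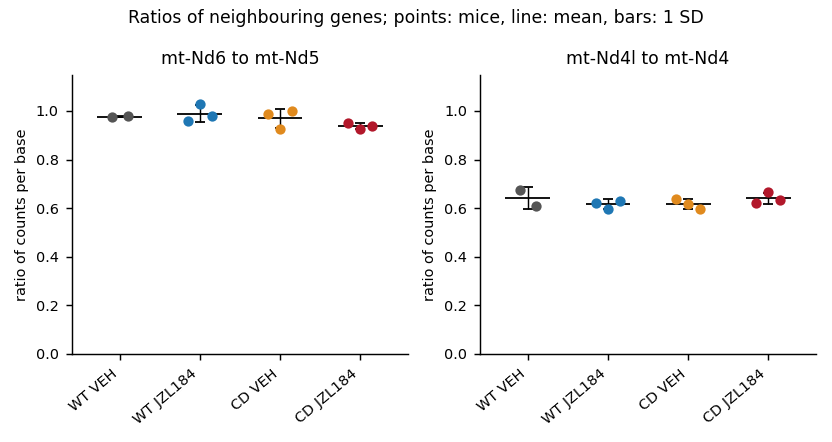
Ratio of counts per base (y axis, from 0) of mt-Nd6 to mt-Nd5 and of mt-Nd4l to mt-Nd4 by group (x axis), with a point for each mouse, the mean as a line and 1 SD as bars. The first ratio stays between 0.926 and 1.03 and the second between 0.595 and 0.675, with overlapping groups in most cases.

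The nuclear genes of complex I were read from the same fits, as lists. Of the 7 nuclear core subunits, all tested, 2 were lower and 1 higher in CD JZL184 against CD VEH, with a median log2 fold change of 0.022, where 17.0% of all tested genes were lower and 16.8% higher. Ndufv2, a subunit of the NADH-oxidizing module, was at -0.28 (edgeR adjusted p = 0.0139). Of 29 tested accessory subunits, 23 were lower and 0 higher in this comparison (median -0.25), 10 were higher and 0 lower in CD VEH against WT VEH (median 0.19), and 6 were higher and 0 lower in WT JZL184 against WT VEH (median 0.11). Of all tested genes, 17.0% were lower in the first of these comparisons, 15.0% higher in the second and 15.4% higher in the last. Ndufv3 was the lowest called accessory subunit in CD JZL184 against CD VEH (-0.53, adjusted p = 0.00235) and the highest in CD VEH (0.44, adjusted p = 0.00749) and in WT JZL184 (0.44, adjusted p = 0.00780) against WT VEH. Of 18 tested assembly factors, which build the complex, 1 was higher and 1 lower in each of these 3 comparisons.

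Markers of several other cell types moved with the same groups, in CD JZL184 against CD VEH beside 17.0% of all tested genes lower and 16.8% higher. In CD JZL184 against CD VEH, 6 of 8 endothelial markers were lower (summed levels of 603 to 703 CPM in CD JZL184, 803 to 895 in CD VEH, 917 to 997 in WT JZL184 and 629 to 632 in WT VEH). Of the macrophage markers, 8 of 8 were lower (247 to 281 CPM in CD JZL184, 361 to 466 in CD VEH, 361 to 604 in WT JZL184 and 277 to 290 in WT VEH). Of the fibroblast markers, 4 of 8 were lower (673 to 783, 858 to 994, 889 to 1123 and 737 to 758 CPM in the same order of groups), and of 7 tested smooth muscle and pericyte markers, 4 were lower and 1 higher (845 to 876, 1017 to 1162, 1123 to 1175 and 902 to 910 CPM). All 5 tested erythroid markers were lower (1416 to 2190 CPM in CD JZL184, 2027 to 18795 in CD VEH, 2637 to 5500 in WT JZL184 and 2030 to 2489 in WT VEH), with the value of 18795 CPM in mouse A of CD VEH, without which mt-Nd3 was at -0.64 (adjusted p = 0.0143) and was the only called gene of the 7. The adipocyte markers summed to 264 to 305 CPM in CD JZL184, 406 to 478 in CD VEH, 431 to 618 in WT JZL184 and 260 to 267 in WT VEH, with Lep at 0 in both WT groups and Ucp1 at 0 in CD JZL184, and the only tested one, Fabp4, was lower in CD JZL184 than in CD VEH. Of 8 cardiomyocyte markers, 3 were higher and 1 lower (41929 to 43579 CPM in CD JZL184, 38072 to 40785 in CD VEH, 32405 to 42721 in WT JZL184 and 43336 to 44732 in WT VEH). Against WT VEH, 7 of 8 endothelial, 8 of 8 macrophage and 5 of 8 fibroblast markers were higher in WT JZL184, and 6, 5 and 3 in CD VEH, beside 15.4% and 15.0% of all tested genes. Of the 7 smooth muscle and pericyte markers, 5 were higher in each, with 0 lower in WT JZL184 and 1 lower in CD VEH. In each of these 2 comparisons, 3 of 8 cardiomyocyte markers were lower and 0 higher, and 0 of 5 erythroid markers passed. The part of these markers in the values of the 7 genes was not tested.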

How the data were processed

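Heart RNA of 11 mice was sequenced by the authors. Transcript abundance was estimated with Salmon 0.7.2 (GRCm38, Ensembl 85), and tximport gave gene-level values. The authors deposited 1 table of estimated counts (genes by mice, not normalized), in which 55.1% of values are not whole numbers. The deposited table lists the 13 protein-coding mitochondrial genes and 0 mitochondrial ribosomal or transfer RNA genes. RNA selection, strand setting and library kit are not given in the sources used here. Each column is named by group and letter and was assigned to its group and 0 columns were left without one.

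After rounding, edgeR 4.0.16 was used (R 4.3.3, limma 3.58.1): TMM factors, quasi-likelihood test, all 4 groups in 1 model, genes at a mean log2 CPM of 1 or more, Benjamini-Hochberg adjustment over 11319 genes, threshold 0.05, common biological coefficient of variation 9.13%. Log2 CPM had a prior count of 2. Each mouse was a replicate. The ratios were tested by exact permutation (scipy 1.17.1, Python 3.11.15, with figures by matplotlib 3.10.9). Pseudogene copies (90% identity over 100 bases or more) were found with BLAST 2.17.0 among the GENCODE M21 transcripts. Genes were matched to GENCODE release 21 by identifier (22238 of 22608).

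The members, gene lists and rule for named genes were chosen with earlier results of these data known. The rule names the 7 genes, the other mitochondrial genes with the lowest and highest change, the called gene with the highest and lowest change per list, nuclear near-copies, and the 5 genes at each end of the correlation with the summed 7 genes; mt-Co2, mt-Co3 and mt-Atp6 were named after their values were seen, and 1 gene that the rule names is not reported here. Alternatives were DESeq2 1.42.0, RLE factors, library totals alone, scaling on nuclear genes, no filter, at least 10 counts in every mouse, robust estimation, only the compared groups, near-copies added, each mouse left out and, chosen after seeing the data, the 13 mitochondrial genes as library size. On simulated counts for CD VEH against WT VEH, 200 of 11319 genes were changed, at folds of 1.5 to 4. There edgeR recovered 93.5% of changed genes (74% at a fold of 1.5) with 7.88% false calls, and DESeq2 94.5% with 16.7% false calls. Recovery at folds below 1.5 was not tested, and mt-Nd3 had a fold of 1.30 in this comparison. Neither rate was tested with as many changed genes as were called in the data (30.4%).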

Additional observations from a re-analysis of the deposited data

Results flagged for a closer look

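The log2 change with JZL184 in CD mice minus that in WT mice differed from 0 for 4 of the 7 genes in the edgeR interaction test. Of all tested genes, 51.5% were called, 26.2% negative and 25.3% positive, so 4 of 7 is near the share called in either direction. All 4 were negative: -1.22 for mt-Nd3, -0.51 for mt-Nd1, -0.44 for mt-Nd4 and -0.34 for mt-Nd6. The mean of mt-Nd3 went from 4386 to 6141 CPM with JZL184 in WT mice and from 5721 to 3443 CPM in CD mice, and that of mt-Nd1 from 26948 to 31111 CPM and from 29375 to 23746 CPM. For mt-Nd1, mt-Nd4 and mt-Nd6, the change in WT mice did not pass the threshold (log2 fold changes of 0.21, 0.15 and 0.11), all 3 fell in CD mice, and these signs turned with the 13 mitochondrial genes as library size. Of the 11 fits that left out a mouse, the interaction passed in 11 for mt-Nd3 and mt-Nd1, 6 for mt-Nd4 and 3 for mt-Nd6. The groups hold 2 or 3 mice, which is too few for a test of single outlying values.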

How the results depend on the processing

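Over the 7 genes, 594 alternative values kept direction and side of the threshold, 84 lost a call, 9 gained one and 41 turned direction; the cause was not tested. Called genes of the 7 in CD VEH against WT VEH, CD JZL184 against CD VEH, WT JZL184 against WT VEH, CD JZL184 against WT JZL184 and the interaction numbered 0, 4, 1, 7 and 4. They were 1, 4, 2, 7 and 5 with DESeq2, 0, 2, 1, 4 and 2 with library totals alone, 0, 1, 1, 3 and 2 without a filter, 0, 1, 1, 4 and 2 with at least 10 counts in every mouse, 1, 4, 1, 7 and 4 with robust estimation, 1, 4, 1 and 4 with a fit of the compared groups alone (no interaction), and 1, 2, 1, 1 and 3 with the 13 mitochondrial genes as library size. Of all tested genes, 30.4%, 33.8%, 29.4%, 38.3% and 51.5% were called in these comparisons, against 34.6%, 37.5%, 33.2%, 41.4% and 53.2% with DESeq2, 26.4%, 37.6%, 29.8%, 45.7% and 52.0% with library totals alone, 16.8%, 18.2%, 16.6%, 22.8% and 32.2% without a filter, 25.3%, 27.5%, 24.9%, 33.4% and 46.4% with at least 10 counts, 30.5%, 33.7%, 29.3%, 38.1% and 51.3% with robust estimation, 35.0%, 41.4%, 14.6% and 30.2% with the compared groups alone, and 30.2%, 60.0%, 45.4%, 70.6% and 67.7% with the mitochondrial library size. Without 1 mouse the counts of the 7 genes were 0 to 1, 1 to 4, 0 to 1, 3 to 7 and 2 to 4; a lone WT VEH mouse is then assumed to vary like the other groups. Library totals alone shifted the median log2 fold change of all genes by 0.11 in CD JZL184 against CD VEH, 0.14 against WT JZL184 and 0.17 for the interaction. RLE factors, nuclear scaling and added near-copies gave the same counts. With the 13 mitochondrial genes as library size, the log2 values of mt-Nd1, mt-Nd4l, mt-Nd4, mt-Nd5 and mt-Nd6 turned to -0.044, -0.13, -0.073, -0.15 and -0.16 in CD VEH against WT VEH. Those of mt-Nd1, mt-Nd2, mt-Nd4l, mt-Nd4, mt-Nd5 and mt-Nd6 turned to 0.015, 0.16, 0.080, 0.028, 0.13 and 0.086 in CD JZL184 against CD VEH, to -0.039, -0.23, -0.15, -0.096, -0.16 and -0.14 in WT JZL184 against WT VEH, to 0.0099, 0.11, 0.11, 0.051, 0.14 and 0.070 in CD JZL184 against WT JZL184, and to 0.054, 0.38, 0.23, 0.12, 0.29 and 0.23 for the interaction. With library totals alone, mt-Nd5 and mt-Nd6 turned to -0.014 and -0.025 in CD VEH against WT VEH, and mt-Nd2 to -0.044 in WT JZL184 against WT VEH. Without 1 mouse, mt-Nd4l, mt-Nd5 and mt-Nd6 ran from -0.077 to 0.16, -0.021 to 0.067 and -0.028 to 0.052 in CD VEH against WT VEH, mt-Nd2 and mt-Nd4l from -0.038 to 0.070 and -0.024 to 0.21 in WT JZL184 against WT VEH, and the log2 ratio of mt-Nd4l to mt-Nd4 from -0.013 to 0.033 for genotype and -0.015 to 0.029 for JZL184. The mean share of the 7 genes in WT VEH, CD VEH, WT JZL184 and CD JZL184 was 11.1%, 11.3%, 11.7% and 10.1% of all counts, and 27.6%, 25.6%, 25.7% and 26.6% of those of the 13 genes. A denominator without mitochondrial ribosomal and transfer RNA genes was not run, since the table lists 0 of them. No paired analysis was possible because the columns carry letters that no label ties to its replicate numbers or to a pairing of mice. At this depth the counting error of a share of the 7 genes (at most 0.00747 percentage points) is far below the spread between mice.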

Other observations

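Nuclear genes that act on mitochondrial RNA were read from the same edgeR fits. Of 22 tested genes for mitochondrial RNA processing, stability and decay, 5 were higher and 2 lower in CD JZL184 against CD VEH, with a median log2 fold change of 0.069, and 1 was higher and 5 lower both in CD VEH and in WT JZL184 against WT VEH (medians -0.11 and -0.12). Of all tested genes, 16.8% were higher and 17.0% lower in the first comparison, and 15.4% and 14.0% were lower in the other two. Lrpprc and Slirp, whose proteins form a complex that stabilises mitochondrial mRNAs, were at the 2 ends of this list. Lrpprc was higher in CD JZL184 than in CD VEH (log2 fold change 0.50, adjusted p = 0.0113) and lower in CD VEH (-0.58, adjusted p = 0.0104) and in WT JZL184 (-0.57, adjusted p = 0.0118) than in WT VEH. Slirp was lower in CD JZL184 than in CD VEH (-0.56, adjusted p = 0.00201) and higher in CD VEH (0.43, adjusted p = 0.00549) and in WT JZL184 (0.45, adjusted p = 0.00448) than in WT VEH. Of 16 tested genes of mitochondrial transcription and replication, 3 were higher and 1 lower in CD JZL184 against CD VEH, a share of higher genes near that of all tested genes. Twnk, the mitochondrial replicative helicase, was at 0.38 (adjusted p = 0.00235), and Ssbp1, which binds single-stranded mitochondrial DNA, at -0.32 (adjusted p = 0.00772).

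The log2 CPM of the 7 genes correlated with each other at Pearson r of 0.66 (mt-Nd2 and mt-Nd3) to 0.97 (mt-Nd1 and mt-Nd4) over the 11 mice, which share group means and library scaling. Among 11306 genes outside the mitochondrial chromosome, those most like the summed 7 genes over these mice were Haus3 (r = 0.95), Dram2 (0.94), Tmem68 (0.93), Clk1 (0.93) and Tmem87a (0.92). Clk1 ranged from 57.1 to 69.6 CPM in CD JZL184 from 62.9 to 74.7 CPM in WT VEH, which overlaps it, and from 75.2 to 96.2 CPM over CD VEH and WT JZL184. The lowest coefficients were those of Pi4k2a (r = -0.97), Ddr1 (-0.95), Lrfn4 (-0.93), Ccdc85c (-0.93) and Nkx2-5 (-0.92), a cardiac transcription factor at 29.4 to 33.4 CPM in CD JZL184 and 23.5 to 28.0 CPM in the other groups. These are descriptions with no test.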
